A study of Mus musculus with 6 samples.

Results

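The histone genes of the mouse were followed through 6 RNA-seq libraries of intestinal epithelial cells, 2 in each of 3 groups. A gene was a member if its symbol began with Hist1h, Hist2h, Hist3h or Hist4h, if it began with H2af, or if it was H3f3a, H3f3b, H3f3c, H1f0 or H1fx. Of the 23845 genes of the deposited count table, 78 were members. There were 64 Hist genes, named for the chromosomal clusters of the replication-dependent histones, and 14 replacement histone genes. The class was set by symbol, and whether each Hist gene is replication-dependent was not tested. The members were taken by a rule on gene symbols, set with earlier results of these data known.

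The EYFP group held cells of genotype Neurog3+/+EYFP with 2 Neurog3 alleles, on a strain given as mixed C57BL6 and CD1. The EGFP group held cells of genotype Neurog3+/-EGFP with 1 Neurog3 allele, on C57BL6. Per the series' design text, the reporter-carrying cells were isolated by flow sorting for intestinal Neurog3 expression. The WT group was wild-type epithelium on C57BL6, whose titles point to duodenum and whose labels do not mention a sort. All 3 groups were labelled as intestinal epithelial cells, and the sources used here give no age, no pooling of animals and no gut segment of the sorted cells. Neurog3 is the transcription factor that starts the enteroendocrine lineage of the gut. The reporter, the number of alleles, the strain and the levels of the sex-linked genes Ddx3y and Xist changed together between EYFP and EGFP cells. They cannot be told apart. Against WT epithelium the reporter, the sort as described and, for EYFP cells, the strain changed with the group as well. Those cannot be told apart either. Nothing in the labels says that the libraries came from separate animals, so p-values measure the spread between these libraries.

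Histones package DNA: 2 copies each of H2A, H2B, H3 and H4 form the nucleosome core, and H1 binds the linker between cores. Replication-dependent histone genes lie in clusters, have no introns as a rule and are expressed mainly in S phase. Their mRNAs end in a conserved stem-loop in place of a poly(A) tail, and the stem-loop is bound by the protein SLBP. Replacement histones are made outside S phase as well, from ordinary polyadenylated mRNAs, and they take over in cells that stop dividing. Enteroendocrine cells leave the cell cycle as they differentiate.

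The stem-loop is printed here because it is what sets the Hist class apart in sequence. The pattern searched was GGNNCT, then TTTN, then AGNGCC without a gap, with N for any base, on the sense strand only. It was found in the longest GENCODE transcript of 38 of 63 matched Hist genes. It was found in 1 of 13 matched replacement genes, H2afx, and in 46 of 21877 genes in all (0.21%). A gene without a match is not shown to lack the stem-loop, since the transcript searched can end before it. For Hist1h2bl that transcript has 381 bases, while the RefSeq gene has 473. The forms below are written 5′ to 3′ as DNA, in lower case with the 4-base loop in capitals.
Hist1h1c: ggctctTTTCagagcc
Hist1h3e: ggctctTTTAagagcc
Hist2h2ac: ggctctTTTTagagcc
Hist1h4h: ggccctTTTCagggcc
Hist1h4i: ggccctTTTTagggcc
H2afx: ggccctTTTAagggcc
On GRCm38 (mm10) they lie at chr13:23739512-23739527 on the plus strand (Hist1h1c), chr13:23561903-23561918 on the minus strand (Hist1h3e) and chr3:96220418-96220433 on the minus strand (Hist2h2ac). The H4 forms lie at chr13:23531458-23531473 on the plus strand (Hist1h4h) and chr13:22040966-22040981 on the minus strand (Hist1h4i). The H2afx form lies at chr9:44335240-44335255 on the plus strand. Each lies in a transcript of 1 exon.

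The first form was shared by 22 Hist genes of the H1, H2A, H2B and H3 classes, while the stem beginning ggccct was found in 9 H4 genes and in H2afx. The RefSeq gene ended within 100 bases of the stem-loop for 36 of the 38 Hist genes, a median of 5 bases after it. GENCODE lists transcripts that run on past the stem-loop, by 840 bases for Hist1h1c and by 1643 bases for Hist3h2a. For H2afx both annotations run 822 bases past it. In human cells H2AX, the variant that marks DNA breaks, is known to have mRNAs of both kinds. The labels name the TruSeq RNA kit, which in its usual form selects poly(A) RNA, and do not say whether that step was used. How much of the stem-loop form entered the libraries was not tested.

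Total estimated counts ran from 7938358 to 20589683 per library, and levels are in CPM, counts scaled to the library total times its TMM factor. The labelled cell types were checked first. Summed levels of 7 epithelial markers were 6123 and 6234 CPM in EYFP cells, 7649.5 and 8379.7 CPM in EGFP cells, and 11083 and 12487 CPM in WT epithelium. Summed levels of 6 enteroendocrine markers were 59253 and 43908 CPM in EYFP, 8602 and 12863 CPM in EGFP, and 487 and 549 CPM in WT. Summed levels of 9 goblet, Paneth and tuft cell markers were 1048 and 1639.7 CPM in EYFP, 51379 and 80943 CPM in EGFP, and 13288 and 17542 CPM in WT. Immune markers (8 of 9 with a row) summed to 8.42 to 216 CPM in EYFP, 16.5 to 48.7 CPM in EGFP and 162 to 190 CPM in WT. The 216 CPM was nearly all Lyz2, at 206 CPM in EYFP library 1 and 0.199 CPM in EYFP library 2, while Ptprc, the pan-leukocyte CD45, was at 6.13 and 1.68 CPM in EYFP, 1.21 and 3.13 CPM in EGFP, and 47.5 and 56.5 CPM in WT. Stromal markers (7) summed to 903 to 1742 CPM in EYFP, nearly all of it Vim, 178 to 185 CPM in EGFP and 14.2 to 41.2 CPM in WT, with Acta2 at 0 in both EYFP libraries. Red blood cell markers (3 of 5 with a row) summed to at most 14.1 CPM, with Hbb-bt at 0 in both EGFP libraries. Ddx3y, a Y-linked gene, was at 37.3 and 39.3 CPM in EYFP, 0 in both EGFP libraries, and 62.4 and 0.101 CPM in WT. Xist, an X-linked gene, was at 0.606 and 2.38 CPM in EYFP, 966 and 969 CPM in EGFP, and 1.15 and 726 CPM in WT. EYFP and EGFP cells thus also differed in both sex-linked genes, and the WT libraries differed from each other in them. The part of these differences in the histone results was not tested. In bulk libraries, fewer cells of a type and less RNA per cell cannot be told apart.

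Replacement histones carried most histone reads in every library. Their summed level was 2771 and 2578 CPM in EYFP cells, 2645 and 2656 CPM in EGFP cells, and 2505 and 2293 CPM in WT epithelium. The Hist genes summed to 367 and 331 CPM in EYFP, 182 and 250 CPM in EGFP, and 212 and 274 CPM in WT. The EYFP libraries stood above the other 4 in the Hist sum, and the EGFP and WT libraries overlapped. Hist genes made up 11.7% and 11.4% of all histone counts in EYFP, 6.43% and 8.59% in EGFP, and 7.80% and 10.7% in WT. A single pair of genes, Hist1h1c (linker histone H1.2) and Hist1h2bc (an H2B), took 55.5% and 58.4% of the Hist counts in EYFP, 56.0% and 61.5% in EGFP, and 68.3% and 70.8% in WT. Without that pair the Hist sum was 164 and 138 CPM in EYFP, 80.0 and 96.0 CPM in EGFP, and 67.2 and 80.1 CPM in WT. On that sum the EYFP libraries were again the highest, and EGFP library 1 lay between both WT libraries by a narrow margin.

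**Figure D1:**
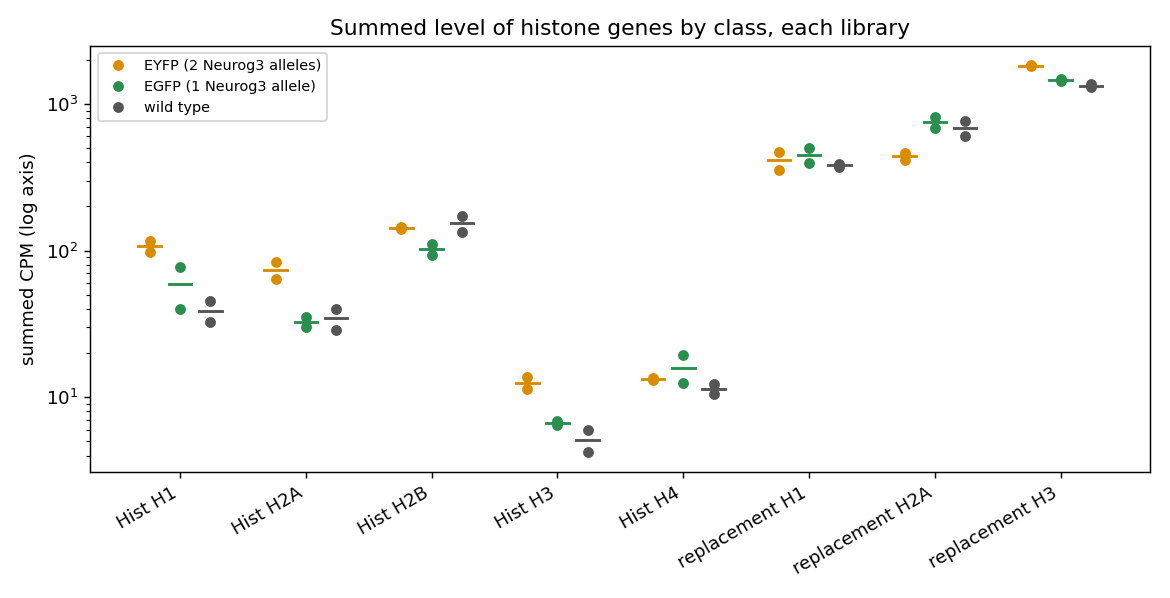
Summed level of the histone genes of each class, in CPM on a log axis, with 1 point per library and a line at the group mean. Hist H1, H2A and H3 were highest in EYFP cells, Hist H2B was highest in WT on average, and replacement H2A was lowest in EYFP cells (462 and 417 CPM in EYFP, 816 and 690 CPM in EGFP, 768 and 607 CPM in WT).

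Within the Hist genes the classes did not move alike. The Hist H1 sum was 117 and 97.1 CPM in EYFP, 40.0 and 77.6 CPM in EGFP, and 32.6 and 45.1 CPM in WT. The H2A sum was 84.1 and 64.3 CPM in EYFP, 29.9 and 35.2 CPM in EGFP, and 28.9 and 40.0 CPM in WT. The H2B sum was 140 and 145 CPM in EYFP, 92.6 and 111 CPM in EGFP, and 134 and 172 CPM in WT. So H1 and H2A stood highest in EYFP, while the H2B sums of EYFP cells lay between those of the WT libraries. The H3 sum was 13.7 and 11.4 CPM in EYFP, 6.87 and 6.51 CPM in EGFP, and 5.99 and 4.22 CPM in WT. The H4 sum was 13.0 and 13.6 CPM in EYFP, 12.4 and 19.3 CPM in EGFP, and 10.6 and 12.2 CPM in WT. The H4 groups of EYFP and EGFP cells overlapped.

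Levels of different genes are compared only per length, as CPM per kilobase of the shorter of the RefSeq span and the longest GENCODE coding transcript. On that scale H3f3b, a gene for the replacement histone H3.3, was the highest member in each group mean, at 469 in EYFP, 385 in EGFP and 347 in WT. The second member was H3f3a in EYFP cells (225), but H2afz, a gene for H2A.Z, in EGFP cells (371) and in WT epithelium (269). The highest Hist gene per length was Hist1h1c in EYFP (134) and in EGFP (71.1), and Hist1h2bc in WT (116). The length was a RefSeq span of 725 bases for Hist1h1c and a GENCODE transcript of 1156 bases for Hist1h2bc. Their order therefore depends on the annotation chosen.

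Depth differed strongly between the classes. After the filter on low counts 41 members were tested, 31 Hist and 10 replacement genes, among 13935 genes in all. The tested Hist genes had a median of 102 counts over the 6 libraries together, and the tested replacement genes 8588. The 37 members not tested were 33 Hist genes, none above 17.8 counts in any library, and H2afb1, H2afb2, H2afb3 and H2afy3, none above 1.11 counts. Hist1h2aa, H2afb1 and H2afb3 were at 0 in every library. Of 63 matched Hist genes, 30 shared at least 50% of their 50-base windows with another annotated gene, so the division of reads among such copies is uncertain. Because the filter keeps a gene that is high in only 1 group, counts over the tested members describe those members and not the whole family.

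Between EYFP and EGFP cells, replacement histones changed in both directions. H1fx, a linker histone, and H2afy2, which encodes macroH2A2, rose. The H2A.Z genes H2afz and H2afv, the break-marking H2afx and H2afj, which encodes H2A.J, fell. That is 2 of 10 tested replacement genes higher and 4 lower by edgeR's quasi-likelihood test with Benjamini-Hochberg adjustment over all genes, at 0.05. Over all 13935 genes tested 36.2% were called, 16.8% higher and 19.4% lower, beside 20.0% higher and 40.0% lower of the 10. The median log2 fold change of the 10 was -0.22, beside 0.01 over all genes.

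The H2A.Z genes supply a variant placed at promoters and enhancers by the SRCAP and p400 remodellers. H2afz was at 213 and 186 CPM in EYFP cells, 447 and 346 CPM in EGFP cells, and 336 and 239 CPM in WT epithelium. H2afv was at 46.2 and 43.1 CPM in EYFP, 73.3 and 92.4 CPM in EGFP, and 116 and 100 CPM in WT. Both genes were lowest in both EYFP libraries, with no overlap with the other groups. Against EGFP cells H2afz fell by 0.99 ± 0.22 (log2, SE, adjusted p = 0.011) and H2afv by 0.89 ± 0.16 (adjusted p = 0.0049). The H2afz call was lost without EYFP library 2 (-0.91, adjusted p = 0.073) and without EGFP library 1 (-0.74, adjusted p = 0.11). H2afz shared 69.6% of its 50-base windows with other annotated genes, and H2afv shared 0%.

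H2afx was at 26.7 and 20.6 CPM in EYFP cells, 58.5 and 43.5 CPM in EGFP cells, and 73.2 and 48.4 CPM in WT epithelium. H2afj was at 28.0 and 23.3 CPM in EYFP, 64.4 and 49.2 CPM in EGFP, and 81.2 and 63.8 CPM in WT. Both genes were again lowest in the EYFP libraries, with EGFP and WT overlapping. Against EGFP cells H2afx fell by 1.11 ± 0.26 (log2, SE, adjusted p = 0.014) and H2afj by 1.14 ± 0.20 (adjusted p = 0.0042). The H2afx call was lost without EYFP library 2 (-0.94, adjusted p = 0.080) and without EGFP library 1 (-0.83, adjusted p = 0.13).

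H1fx encodes H1.10, a linker histone whose gene stands apart from the clusters. It was at 26.5 and 15.1 CPM in EYFP cells, 4.70 and 6.51 CPM in EGFP cells, and 0.666 and 0.663 CPM in WT epithelium. H2afy2 encodes macroH2A2, which carries a large macrodomain behind its histone fold and is known from silenced chromatin. It was at 13.0 and 11.7 CPM in EYFP, 3.33 and 3.24 CPM in EGFP, and 0.724 and 0.450 CPM in WT. For both genes the 3 groups were fully separate, in the order EYFP, EGFP, WT. H1fx rose 3.69-fold in EYFP over EGFP cells (log2 1.88 ± 0.33 SE, adjusted p = 0.0045) and H2afy2 rose 3.74-fold (1.90 ± 0.32, adjusted p = 0.0037). Both calls held when any 1 library was left out.

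Reads of H1fx and H2afy2 could be shared with another gene. Aifm2 overlaps H2afy2 in the RefSeq annotation, and no source used here gives the strand setting of the counting. It was at 23.4 and 20.5 CPM in EYFP cells, 12.1 and 12.2 CPM in EGFP cells, and 14.8 and 17.9 CPM in WT epithelium. Aifm2 rose by a log2 of 0.85 ± 0.20 in EYFP over EGFP cells (edgeR, SE, adjusted p = 0.013) and was at -0.43 ± 0.20 in EGFP over WT (adjusted p = 0.12). The part of such reads in the values of H1fx and H2afy2 was not tested. Gm5577 shares 14.0% of the windows of H1fx and had 48 and 45 counts in EYFP, 18 and 22 counts in EGFP, and 1 count in each WT library. Aifm2 was looked at for its position and Gm5577 for its shared windows, after the member values were seen.

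The upstream sequences of genes that fell and of genes that rose are set beside each other, 250 bases before a transcript start given by RefSeq on GRCm38.p6, 5′ to 3′ on the gene's strand, with CCAAT and its reverse ATTGG in capitals.
H2afz: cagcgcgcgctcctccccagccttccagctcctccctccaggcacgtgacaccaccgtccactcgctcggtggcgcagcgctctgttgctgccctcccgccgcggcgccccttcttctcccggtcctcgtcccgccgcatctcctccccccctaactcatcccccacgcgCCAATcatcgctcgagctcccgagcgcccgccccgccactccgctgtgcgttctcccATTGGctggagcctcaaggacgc
H2afv: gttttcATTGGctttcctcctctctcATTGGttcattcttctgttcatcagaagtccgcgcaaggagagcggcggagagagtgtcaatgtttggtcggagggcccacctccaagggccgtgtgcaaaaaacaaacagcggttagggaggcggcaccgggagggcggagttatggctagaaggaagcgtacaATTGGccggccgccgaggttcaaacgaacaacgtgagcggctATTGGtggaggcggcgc
H1fx: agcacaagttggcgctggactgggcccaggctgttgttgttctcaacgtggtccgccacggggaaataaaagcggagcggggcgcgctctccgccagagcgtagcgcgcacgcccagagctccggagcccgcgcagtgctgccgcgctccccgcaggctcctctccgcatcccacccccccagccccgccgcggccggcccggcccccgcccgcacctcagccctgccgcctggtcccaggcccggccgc
H2afy2: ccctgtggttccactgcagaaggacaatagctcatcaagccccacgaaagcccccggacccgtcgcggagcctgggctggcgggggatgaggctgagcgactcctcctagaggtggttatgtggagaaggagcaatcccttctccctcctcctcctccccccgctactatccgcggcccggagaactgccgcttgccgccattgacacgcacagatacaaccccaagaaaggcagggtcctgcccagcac
They lie at chr3:137864237-137864486 (plus strand), chr11:6444444-6444693 (minus strand), chr6:87981483-87981732 (minus strand) and chr10:61783865-61784114 (minus strand). The RefSeq genes H2afv and H2afy2 reach to positions 6444511 and 61784604, so the H2afv window overlaps its gene and the H2afy2 window lies wholly inside its gene. CCAAT on either strand was present 2 times in the window of H2afz and 4 times in that of H2afv, and was not in the windows of H1fx and H2afy2. Among the other tested replacement genes with a window, H2afj, H3f3a and H3f3b held it 3, 1 and 4 times. It was not in the windows of H2afy and H1f0. Of these other genes only H2afj fell, and the rest did not pass the test between EYFP and EGFP cells. In windows of 300 bases, which add 50 bases after the start, CCAAT on either strand was found in 84.7% of 59 Hist windows, in 66.7% of 12 replacement windows and in 37.4% of all 32851 windows. TATAAA on either strand was found in 57.6% of Hist windows, 8.33% of replacement windows and 13.6% of all windows. Windows of adjacent H2A and H2B genes overlap, so the Hist windows are not independent, and a match is a description of letters.

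The genes for H3.3, the H3 that HIRA and the DAXX and ATRX pair place outside replication, held most of the replacement counts. H3f3a was at 650 and 631 CPM in EYFP cells, 483 CPM in both EGFP libraries, and 485 and 431 CPM in WT epithelium. H3f3b was at 1184 and 1173 CPM in EYFP, 951 and 985 CPM in EGFP, and 879 and 865 CPM in WT. The EYFP libraries were the highest for both genes. The log2 fold changes in EYFP over EGFP cells were 0.41 ± 0.16 for H3f3a (adjusted p = 0.088) and 0.28 ± 0.18 for H3f3b (adjusted p = 0.25), neither past edgeR's test. DESeq2's Wald test called both, at 0.48 (adjusted p = 0.0030) and 0.36 (adjusted p = 0.011). For H3f3a the call also appeared in edgeR without WT library 1 (0.40, adjusted p = 0.045) and without WT library 2 (0.40, adjusted p = 0.042).

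The remaining tested replacement genes, H2afy and H1f0, did not pass the test. H2afy, which encodes macroH2A1, was at 136 and 132 CPM in EYFP cells, 170 and 156 CPM in EGFP cells, and 161 and 154 CPM in WT epithelium. Both EYFP libraries were below the other 4, and its log2 fold change in EYFP over EGFP cells was -0.28 ± 0.13 (adjusted p = 0.13). H1f0, the linker histone H1.0 of non-dividing cells, was at 447 and 341 CPM in EYFP, 390 and 491 CPM in EGFP, and 372 and 390 CPM in WT, and the 3 groups overlapped. Its log2 fold change was -0.16 ± 0.20 (adjusted p = 0.56).

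**Figure D2:**
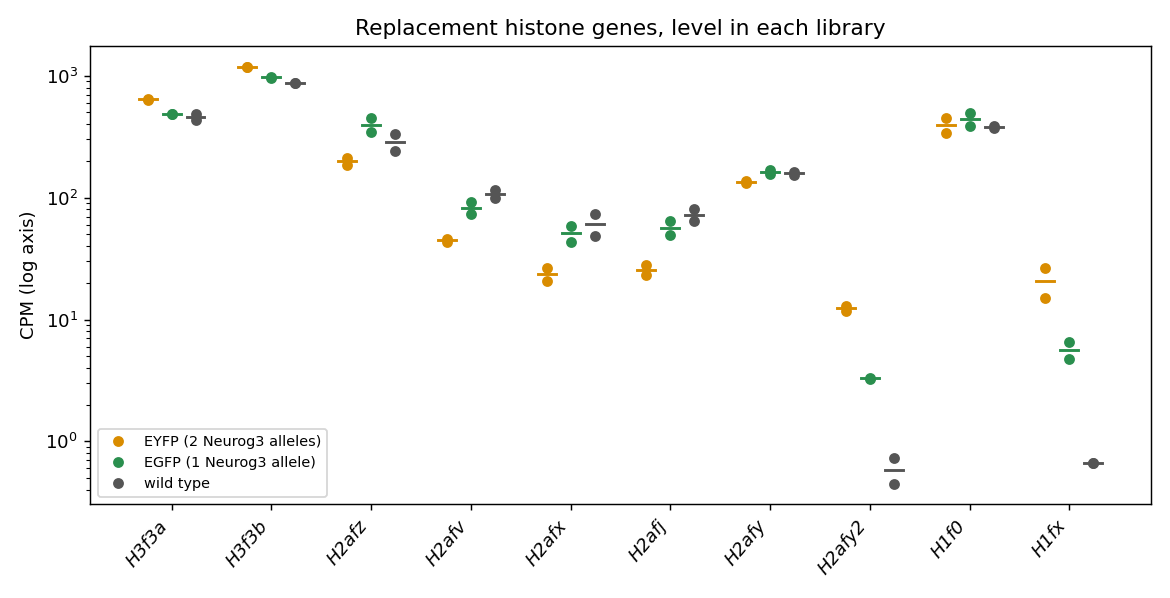
Level of the 10 tested replacement histone genes in CPM on a log axis, with 1 point per library and a line at the group mean. H2afz, H2afv, H2afx and H2afj were lowest in both EYFP libraries, while H2afy2 and H1fx stepped down by group to under 1 CPM in WT.

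Among the tested Hist genes more rose than fell between EYFP and EGFP cells, but no larger a share than among all genes. Of 31, 4 rose (12.9%), Hist1h2bq, Hist2h3c1, Hist2h2aa2 and Hist3h2a, and 1, Hist1h4j, fell (3.23%). Over all genes 16.8% were called higher and 19.4% lower. The median log2 fold change of the 31 was 0.42 and 22 were positive, beside a median of 0.01 and 50.4% positive over all genes. The 26 that did not pass ran from -0.75 (Hist1h2ae) to 2.62 (Hist1h2ao). Hist3h2a and Hist1h4j are named to spell out these counts, after their values were seen. None of these 5 calls held without each library in turn. Fits without an EYFP or EGFP library also called fewer of all genes, so lost calls were not particular to the Hist genes. The Hist median ran from 0.41 to 0.78 when each library was left out in turn.

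Hist2h2aa2, an H2A of the chromosome 3 cluster, was at 57.0 and 42.9 CPM in EYFP cells, 14.4 and 21.4 CPM in EGFP cells, and 15.6 and 28.6 CPM in WT epithelium. It rose by a log2 of 1.48 ± 0.34 in EYFP over EGFP cells (edgeR, SE, adjusted p = 0.015), and both EYFP libraries lay above the other 4. Adjusted p was 0.072 without EYFP library 1 and 0.073 without EGFP library 1. Hist2h3c1, an H3 of the same cluster, was at 8.70 and 6.23 CPM in EYFP, 3.10 and 2.17 CPM in EGFP, and 1.29 and 2.13 CPM in WT. It rose by 1.496 ± 0.40 (adjusted p = 0.022), with both EYFP libraries above the rest. Adjusted p was 0.13 without EYFP library 1, 0.057 without EGFP library 1 and 0.12 without EGFP library 2. All 50-base windows of both genes are shared with another annotated gene, so their division of reads is uncertain. Each of their count rows names 2 loci, and how much of the sharing lies between those loci was not tested.

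Hist1h2bq, an H2B, was at 12.6 and 11.3 CPM in EYFP cells, 2.39 and 4.66 CPM in EGFP cells, and 1.21 and 3.11 CPM in WT epithelium. It rose by a log2 of 1.73 ± 0.47 in EYFP over EGFP cells (edgeR, SE, adjusted p = 0.023). All its windows are shared, mainly with Hist1h2br, and its count row also names 2 loci. Adjusted p was 0.091 without EYFP library 1, 0.071 without EYFP library 2 and 0.12 without EGFP library 1. Hist3h2a, an H2A on chromosome 11, was at 20.3 and 15.3 CPM in EYFP, 8.44 and 10.01 CPM in EGFP, and 5.81 and 7.22 CPM in WT. The groups were fully separate in that order. Its log2 rise was 0.95 ± 0.25 (adjusted p = 0.021), with adjusted p of 0.15 without EYFP library 1, 0.096 without EGFP library 1 and 0.057 without EGFP library 2. Hist1h4j, an H4, had 0 counts in both EYFP libraries against 19 counts in both EGFP libraries together, at least 8.21-fold lower when 3 counts are set as the limit for both libraries. Its call was lost without EGFP library 2 (adjusted p = 0.0502).

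The 2 Hist genes with the most counts did not pass the test between EYFP and EGFP cells. Hist1h1c was at 107 and 87.9 CPM in EYFP, 33.8 and 69.3 CPM in EGFP, and 28.8 and 41.5 CPM in WT. Both EYFP libraries were above the other 4, and EGFP library 2 stood apart from EGFP library 1. The log2 fold change was 0.91 ± 0.35 (edgeR, SE, adjusted p = 0.092), and it was 1.52 without EGFP library 2 (adjusted p = 0.011). DESeq2's Wald test gave 0.98 (adjusted p = 0.023). Hist1h2bc was at 96.7 and 106 CPM in EYFP, 68.1 and 84.2 CPM in EGFP, and 116 and 152 CPM in WT. Its EYFP level lay above EGFP and below WT, and its log2 fold change in EYFP over EGFP cells was 0.41 ± 0.18 (adjusted p = 0.11). Hist1h4i, the H4 gene of highest mean CPM, was at 5.75 and 5.19 CPM in EYFP, 4.13 and 8.20 CPM in EGFP, and 2.68 and 5.43 CPM in WT, with overlapping groups and a log2 fold change of -0.18 ± 0.45 (adjusted p = 0.79).

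**Figure D3:**
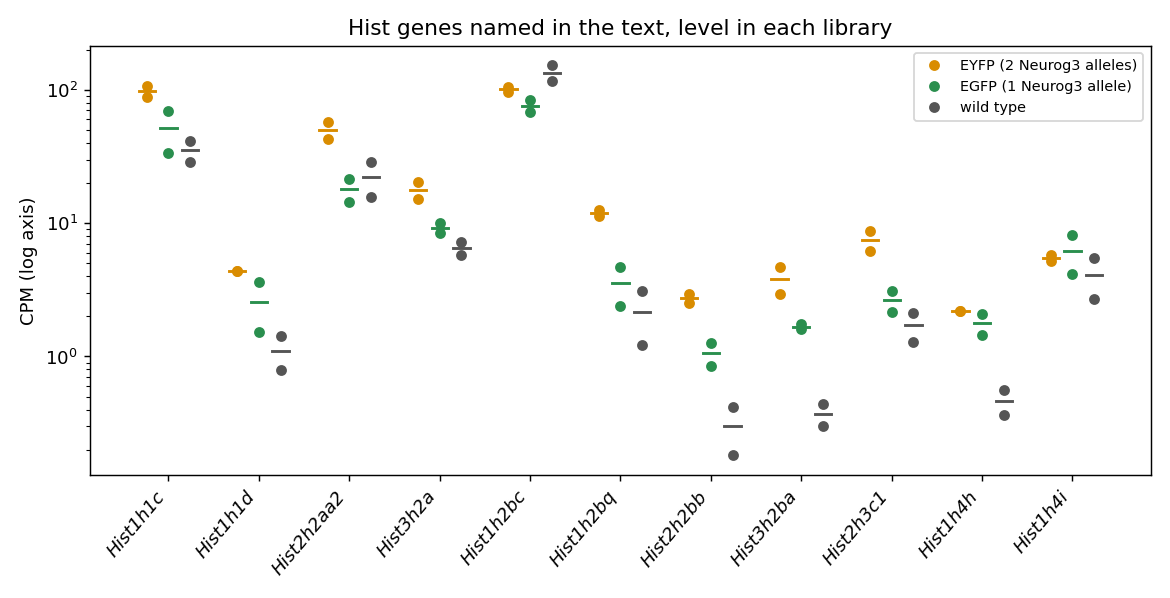
Level of 11 Hist genes in CPM on a log axis, with 1 point per library and a line at the group mean. EYFP libraries were the highest for Hist1h1c, Hist2h2aa2, Hist3h2a, Hist1h2bq and Hist2h3c1, whereas WT was highest for Hist1h2bc and the groups overlapped for Hist1h4i.

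Genes of DNA synthesis were lower in EYFP cells, while the share of Hist genes called higher was 12.9%, beside 16.8% of all genes. All 14 listed genes of S phase and proliferation fell in EYFP against EGFP cells, beside 19.4% of all genes called lower. Their median log2 fold change was -1.85. Mki67, the proliferation marker Ki-67, was at 55.4 and 90.8 CPM in EYFP, 351 and 329 CPM in EGFP, and 431 and 269 CPM in WT, and fell by 2.22 ± 0.31 (edgeR, SE, adjusted p = 0.0022). Rrm2, a subunit of ribonucleotide reductase, was at 5.28 and 7.73 CPM in EYFP, 49.7 and 39.9 CPM in EGFP, and 48.7 and 33.7 CPM in WT, and fell by 2.79 ± 0.27 (adjusted p = 0.00053). The EYFP libraries were lowest for both genes. Between EGFP cells and WT epithelium 0 of the 14 were called by edgeR in either direction, beside 41.5% of all genes. Of the 14, 0 were at an unadjusted p under 0.05 and 0 were called by DESeq2. Against WT all 14 fell in EYFP cells, with a median of -1.66, beside 33.5% of all genes called lower.

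Of 14 chaperones that place histones at replication, 8 fell in EYFP against EGFP cells, beside 19.4% of all genes called lower. Their median log2 fold change was -0.63. Chaf1a, the large subunit of CAF-1, was at 9.26 and 11.5 CPM in EYFP, 41.1 and 36.1 CPM in EGFP, and 40.3 and 30.9 CPM in WT, and fell by 1.89 ± 0.21 (edgeR, SE, adjusted p = 0.00073). Asf1b, which hands H3 and H4 to CAF-1, was at 5.78 and 4.62 CPM in EYFP, 27.5 and 21.8 CPM in EGFP, and 27.3 and 19.9 CPM in WT, and fell by 2.24 ± 0.25 (adjusted p = 0.00081). Both were lowest in EYFP, and their EGFP and WT levels overlapped. Mcm2 is in this list and in the S phase list.

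Of 15 genes for histone mRNA synthesis and processing, 2 fell in EYFP against EGFP cells. That is a smaller share than the 19.4% called lower over all genes. The median log2 fold change of the 15 was -0.24. Slbp, the stem-loop binding protein, was at 50.9 and 44.98 CPM in EYFP, 78.2 and 60.1 CPM in EGFP, and 72.0 and 68.5 CPM in WT, and fell by 0.53 ± 0.16 (edgeR, SE, adjusted p = 0.039). Eri1, an exonuclease that trims histone mRNA at the stem-loop, was at 21.4 and 17.7 CPM in EYFP, 38.0 and 32.1 CPM in EGFP, and 31.9 and 25.1 CPM in WT, and fell by 0.84 ± 0.20 (adjusted p = 0.014). The EYFP libraries were lowest for both. Fits without an EYFP or EGFP library called fewer of all genes as well. The count of falls was 1 without EYFP library 1, and 0 without EYFP library 2 or without EGFP library 1.

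Of 13 tested chaperones and remodellers for replacement histones (Srcap was not analysed here), 3 rose and 1 fell in EYFP against EGFP cells. Their median log2 fold change was 0.12, and 16.8% of all genes were called higher and 19.4% lower. Hira, the H3.3 chaperone, was at 65.8 and 67.0 CPM in EYFP, 78.5 and 65.7 CPM in EGFP, and 83.1 and 76.5 CPM in WT, with a log2 fold change of -0.12 ± 0.14 (edgeR, SE, adjusted p = 0.55). Hjurp, which loads the centromeric H3 variant CENP-A, was at 126 and 120 CPM in EYFP, 68.6 and 83.1 CPM in EGFP, and 114 and 108 CPM in WT, and rose by 0.69 ± 0.14 (adjusted p = 0.0085). Ruvbl2, an ATPase of the remodellers that exchange H2A.Z, was at 55.7 and 49.9 CPM in EYFP, 89.2 and 77.7 CPM in EGFP, and 75.4 and 57.2 CPM in WT, and fell by 0.66 ± 0.17 (adjusted p = 0.021). EYFP was the highest group for Hjurp and the lowest for Ruvbl2. The other rises were Ubn2 and Atrx, partners of HIRA and of DAXX, each by 0.48, and both are named to complete the count after their values were seen. Fewer of all genes were called, too, in fits without an EYFP or EGFP library. Without EYFP library 1 the counts were 0 rises and 0 falls. Without EYFP library 2 or EGFP library 1 they were 1 rise and 0 falls, without EGFP library 2 they were 1 rise and 2 falls, and without WT library 1 or 2 the falls numbered 3.

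**Figure D4:**
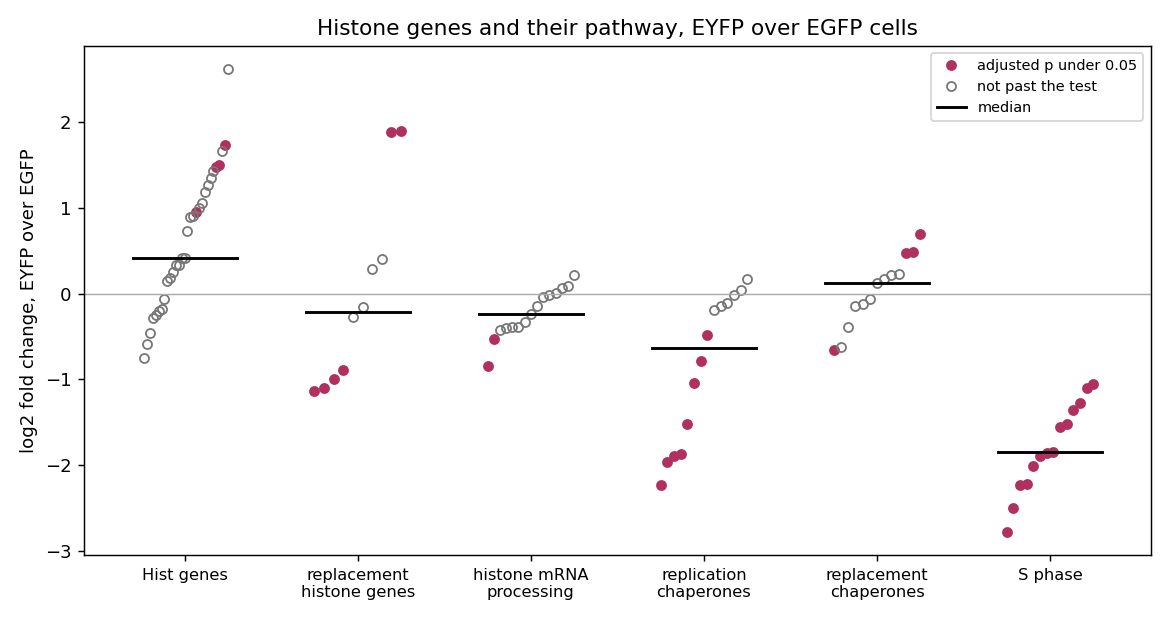
Log2 fold change in EYFP over EGFP cells for each tested Hist gene, replacement histone gene and gene of the 4 pathway lists, with filled points past an adjusted p of 0.05 and a bar at the median. All 14 S phase genes lie below 0. The Hist median is 0.42, with 12.9% of Hist genes called higher beside 16.8% of all genes. Hist1h4j, at 0 in both EYFP libraries, is not drawn.

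Between EGFP cells and WT epithelium H1fx and H2afy2 rose, with no fall among the 10 tested replacement genes by edgeR, 1 fall at an unadjusted p under 0.05 and 0 by DESeq2. Over all genes 41.5% were called, 19.6% higher and 21.9% lower, so the 20.0% of tested replacement genes that rose was near the background. H1fx rose 8.39-fold in EGFP cells over WT (log2 3.07 ± 0.42 SE, adjusted p = 0.00089) and H2afy2 rose 5.70-fold (2.51 ± 0.39, adjusted p = 0.0017). Both calls held when any 1 library was left out, though WT counts were only 8 and 11 for H1fx. The median of the 10 was 0.11, beside 0.00 over all genes. The log2 fold change of H2afz was 0.46 ± 0.21 (adjusted p = 0.12), and it passed the test without WT library 1 (0.73, adjusted p = 0.032).

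Of the 31 tested Hist genes, 4 rose in EGFP cells over WT, Hist1h3a, Hist3h2ba, Hist1h4h and Hist2h2bb, and Hist1h2bc fell by 0.82 ± 0.18 (edgeR, SE, adjusted p = 0.0082). The median was 0.60 with 23 positive, beside 50.2% positive over all genes, and the 12.9% that rose was below the 19.6% of all genes. Hist1h2bc levels were 68.1 and 84.2 CPM in EGFP cells, and 116 and 152 CPM in WT, without overlap. Without EGFP library 1 the Hist1h2bc value was -0.57 (adjusted p = 0.089). The 4 rises rest on few reads and each lost its call without at least 1 library.

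Hist1h3a, an H3 of the chromosome 13 cluster, was at 1.51 and 1.10 CPM in EGFP cells, and 0 and 0.267 CPM in WT, and rose by a log2 of 3.18 ± 0.87 (edgeR, SE, adjusted p = 0.021). Its adjusted p was 0.094 without EGFP library 1, 0.060 without EGFP library 2 and 0.072 without WT library 1, and without WT library 2 the WT group was at 0. Hist3h2ba, an H2B on chromosome 11, was at 1.61 and 1.74 CPM in EGFP cells, and 0.444 and 0.301 CPM in WT, and rose by 2.22 ± 0.54 (adjusted p = 0.013). Its adjusted p was 0.063 without EGFP library 2 and 0.074 without WT library 2. Hist1h4h, an H4, was at 2.09 and 1.45 CPM in EGFP cells, and 0.362 and 0.558 CPM in WT, and rose by 1.92 ± 0.53 (adjusted p = 0.021). Without EGFP library 1 or 2 or WT library 1 or 2 its adjusted p was between 0.053 and 0.098. For all 3 genes both EGFP libraries lay above both WT libraries. Hist2h2bb, named to complete the count, rose by 1.87 ± 0.63 (adjusted p = 0.045), and its adjusted p was 0.053 to 0.24 without each library in turn.

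EYFP cells and WT epithelium shared their libraries with the comparisons above, so their values are given side by side and not as further support. Of 31 tested Hist genes 14 rose and Hist1h4j fell, while of 10 tested replacement genes H1fx, H2afy2 and H3f3a rose and H2afj, H2afv and H2afx fell. Over all genes 60.6% were called, 27.1% higher and 33.5% lower, beside 45.2% higher and 3.23% lower of the tested Hist genes and 3 of 10 replacement genes in each direction. The Hist median was 1.12 with 24 positive, beside -0.12 and 45.5% positive over all genes, and the replacement median was -0.09. With DESeq2 size factors the median of all genes moved by 0.11 and the replacement median became 0.02. Fits without an EYFP or WT library called fewer of all genes than the main fit. The count of Hist rises was 9 without EYFP library 1 and 7 without WT library 1, with 6 of the 15 Hist calls held without each library in turn.

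Among replacement genes H1fx was 30.9-fold higher in EYFP than in WT (log2 4.95 ± 0.41, edgeR, SE, adjusted p = 4.1e-05) and H2afy2 was 21.3-fold higher (4.41 ± 0.38, adjusted p = 4.8e-05). The falls were by 1.49 ± 0.20 for H2afj (adjusted p = 0.00042), 1.27 ± 0.16 for H2afv (adjusted p = 0.00032) and 1.36 ± 0.25 for H2afx (adjusted p = 0.0027). These 5 calls held when any 1 library was left out. H3f3a rose by 0.48 ± 0.16 (adjusted p = 0.033), which was lost without EYFP library 1 or 2, EGFP library 2 or WT library 2 (adjusted p 0.067 to 0.14). H3f3b was at 0.44 ± 0.18 (adjusted p = 0.068), and it passed with DESeq2 size factors (0.55, adjusted p = 0.029) and by DESeq2's Wald test (0.55, adjusted p = 1.5e-05). H2afz was at -0.53 ± 0.21 (adjusted p = 0.064), and it passed without WT library 2 (-0.76, adjusted p = 0.016) and with no filter on low counts (-0.53, adjusted p = 0.038).

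By class, the rises in EYFP over WT were 3 of 4 tested H1 genes, 3 of 6 H2A, 4 of 9 H2B, 3 of 5 H3 and 1 of 7 H4 genes. By position they were 8 of 24 tested genes of the Hist1 cluster, 4 of 5 of Hist2 and both tested genes of Hist3. By transcript end, they were 8 of 15 genes whose longest GENCODE transcript runs over 100 bases past the stem-loop. They were 4 of 8 that end within 100 bases of it, and 2 of 8 whose searched transcript held no stem-loop. The median log2 fold changes of these 3 kinds were 1.47, 0.996 and -0.01. These groupings were not tested against each other, and each also differs in depth and in shared windows. Of all tested genes 27.1% were called higher in EYFP over WT.

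Hist3h2ba was at 4.71 and 2.96 CPM in EYFP cells, and 0.444 and 0.301 CPM in WT, and rose by a log2 of 3.41 ± 0.52 (edgeR, SE, adjusted p = 0.00079). Hist2h2bb, an H2B of the chromosome 3 cluster, was at 2.96 and 2.52 CPM in EYFP, 0.844 and 1.27 CPM in EGFP, and 0.416 and 0.181 CPM in WT. It rose by 3.22 ± 0.58 in EYFP over WT (adjusted p = 0.0019), with groups fully separate in that order. Both calls held when any 1 library was left out. All windows of Hist2h2bb are shared with another annotated gene, so its division of reads is uncertain. Hist1h3e, an H3, was at 0.753 and 1.65 CPM in EYFP cells, and 0 and 0.276 CPM in WT, and rose by 2.77 ± 0.93 (adjusted p = 0.033). Of the windows of Hist1h3e 73.4% are shared, so its division of reads is uncertain as well. Its adjusted p was 0.18 without EYFP library 2, 0.053 without EGFP library 1, 0.057 without EGFP library 2 and 0.12 without WT library 1, and without WT library 2 the WT group was at 0.

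For the Hist genes named first in EYFP over EGFP cells, the values over WT were as follows. Hist1h2bq rose by 2.41 ± 0.48 (edgeR, SE, adjusted p = 0.0031), Hist2h3c1 by 2.10 ± 0.40 (adjusted p = 0.0026) and Hist3h2a by 1.44 ± 0.25 (adjusted p = 0.0016). These 3 calls against WT held when any 1 library was left out. Hist2h2aa2 rose by 1.17 ± 0.33 (adjusted p = 0.019), with 0.96 (adjusted p = 0.090) without EYFP library 1 and 0.80 (adjusted p = 0.057) without WT library 1. Hist1h1c rose by 1.47 ± 0.36 (adjusted p = 0.012), with 1.32 (adjusted p = 0.053) without EYFP library 1 and 1.23 (adjusted p = 0.076) without WT library 1. Hist1h4h, at 2.17 and 2.19 CPM in EYFP, rose by 2.26 ± 0.51 (adjusted p = 0.0060). Hist1h4j was at least 2.43-fold lower in EYFP, from 0 counts against 8 counts in both WT libraries together, and its call was lost when any 1 of the 6 libraries was left out.

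The other 5 rises in EYFP over WT, named to complete the 14 after their values were seen, each lost the call without at least 1 library. The linker histone genes Hist1h1d and Hist1h1e rose by 1.97 ± 0.53 and 1.55 ± 0.45 (edgeR, SE, adjusted p = 0.013 and 0.019). Adjusted p was 0.066 without WT library 1 for Hist1h1d, and 0.094 without EYFP library 1 and 0.0997 without WT library 2 for Hist1h1e. Hist1h2be, an H2B, rose by 1.82 ± 0.66 (adjusted p = 0.044), which became 1.19 (adjusted p = 0.16) without WT library 1 and 3.26 (adjusted p = 0.017) without WT library 2. Its adjusted p was 0.063 without EYFP library 1, 0.18 without EYFP library 2 and 0.061 without EGFP library 2. Hist2h2ac, an H2A, rose by 2.36 ± 0.67 (adjusted p = 0.017), with 0.15 without EYFP library 1, 0.069 without WT library 1 and 0.12 without WT library 2. Hist1h3a rose by 2.72 ± 0.88 (adjusted p = 0.028), with 0.11 without EYFP library 1, 0.063 without EYFP library 2, 0.051 without EGFP library 2 and 0.10 without WT library 1.

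**Figure D5:**
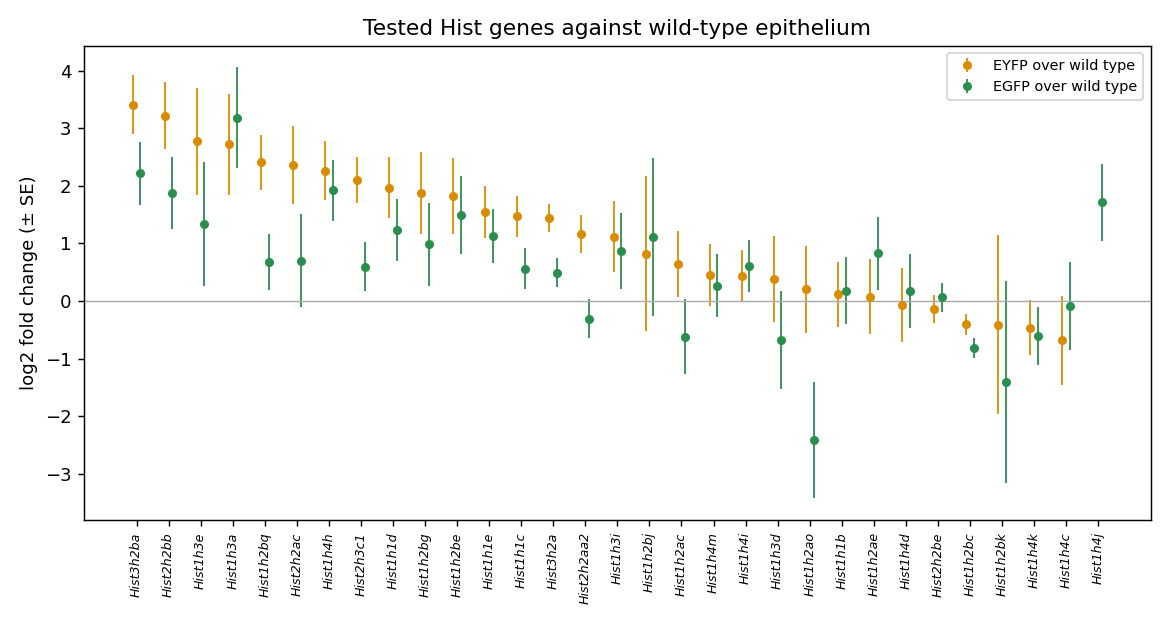
Log2 fold change with its SE for the 31 tested Hist genes in EYFP over WT and in EGFP over WT, which share the WT libraries. Genes are ordered by the EYFP value, Hist3h2ba (3.41) stands first, Hist1h2bc lies below 0 in both, and the EYFP value of Hist1h4j is not drawn because both EYFP libraries are at 0.

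The authors' deposited table of comparisons lists 40 Hist and 10 replacement genes. At an adjusted p-value under 0.05, the authors' deposited table calls 6 Hist genes higher and 2 lower, and 3 replacement genes higher and 4 lower, in EYFP over EGFP cells. In EGFP over WT the authors' deposited table calls Hist1h2bc lower and no Hist gene higher, and H1fx and H2afy2 higher. In EYFP over WT the authors' deposited table calls 12 Hist genes higher, and 4 replacement genes higher and 3 lower. The share of all genes called in that table is not given here, so these counts have no background beside them.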

How the data were processed

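Per the labels' protocols, total RNA came from the RNeasy Micro kit, and TruSeq RNA libraries were read on a HiSeq2000 as 50-base single ends. The submitters' processing notes name RSEM 1.3.1, Bowtie2, FastQC 0.11.8, the mm10 build and DESeq2 1.26.0, without roles or settings. The authors deposited estimated counts per gene, of which 20.3% to 31.1% per library were not whole. The authors' deposited table of comparisons also holds a normalized signal per library, a linear fold and an adjusted p-value for each comparison. Columns of the EYFP libraries carry EGFP and the word addon in their names, and were matched to the samples by that word.

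Counts were rounded, filtered with filterByExpr (13935 genes, 58.4%), scaled with TMM and tested with edgeR 4.0.16 (R 4.3.3) in 1 robust quasi-likelihood fit of 3 group means over 6 libraries, leaving 3 residual degrees of freedom. P-values were adjusted by Benjamini-Hochberg over all tested genes and called at 0.05. The SE of a log2 fold change came from its F value. The fit was tested on simulated data. A group at 0 was given a floor of 3 counts, which covers counting error only. Alternatives were DESeq2 1.42.0 (size factors, Wald test), TMM without the 50 most abundant genes, other filters, only the 4 libraries compared, the replicate block, raw library totals, and leaving out each library. A group left with 1 library was taken to have the spread of the rest. Coordinates and sequences are from RefSeq (GRCm38.p6, 77 of 78 members matched by transcript accession) and GENCODE (76 matched by symbol).

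Members and gene lists were chosen with earlier results of these data known. Named were every tested replacement gene, the most abundant tested Hist gene of each class, the 3 largest rises and falls per comparison at 1 CPM or more, and, per pathway list, its first symbol and the largest rise and fall.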

Additional observations from a re-analysis of the deposited data

How the results depend on the processing

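Of 31 calls of named genes, 16 held under every alternative run and 0 changed sign. With no filter on low counts, 7 of 63 Hist genes were higher and 3 lower in EYFP over EGFP, beside 2381 and 2701 of all 18686 genes. Lower Hist genes numbered 5 in EGFP over WT and 3 in EYFP over WT, beside 3099 and 4684 of all genes. With a minimum of 10 counts in each library of some group, the Hist medians were 0.89 (EYFP over EGFP) and 1.48 (EYFP over WT). Of 23 Hist genes 0 were lower in either, beside 2719 and 4687 of all 13853 genes. With only the 4 libraries compared, 0 Hist genes were lower in EYFP over EGFP or EYFP over WT, beside 2948 of 13472 and 3826 of 13824 genes in all. The Hist medians were then 0.75 (EGFP over WT) and 1.34 (EYFP over WT), and the replacement median was 0.067 (EYFP over WT). In that setting 3 replacement chaperones were lower in EYFP over EGFP. The DESeq2 Wald test gave 4 of 10 replacement genes higher in EYFP over EGFP, beside 2646 of all 13935 genes. It gave 0 of 31 Hist genes lower in EYFP over WT, beside 4157 of all genes, and medians there of 1.22 (Hist) and 0.021 (replacement). DESeq2 size factors gave medians of 1.23 (Hist) and 0.021 (replacement) in EYFP over WT. Under both, 1 mRNA processing gene was lower in EYFP over EGFP, beside 2498 (Wald test) and 2423 (size factors) of all 13935 genes. With no filter, 2 replacement chaperones were lower in that comparison.

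The replicate numbers do not pair the libraries (correlations of deviations 0.02, 0.096 and 0.01). With the replicate block, 2 Hist genes were lower in EYFP over WT and 2 replacement chaperones lower in EYFP over EGFP, beside 4780 and 2932 of all 13935 genes. The Hist genes higher numbered 5, 3 and 15 in EYFP over EGFP, EGFP over WT and EYFP over WT, beside 2512, 2814 and 3850 of all genes. Among named genes, Hist1h2bc passed with the block in EYFP over EGFP (0.42, adjusted p = 0.040) and EYFP over WT (-0.39, adjusted p = 0.032), H2afz passed in EGFP over WT (0.47, adjusted p = 0.034) and EYFP over WT (-0.51, adjusted p = 0.018), and Hist2h2bb no longer passed in EGFP over WT (1.89, adjusted p = 0.061).

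Scaled by raw totals, the Hist sum was 404 CPM in EYFP, and the replacement sums 3091, 2724 and 2024 CPM in EYFP, EGFP and WT. With DESeq2 size factors the EGFP replacement sum was 2639 CPM.

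Leaving out each library in turn gave these ranges in EYFP over EGFP: Hist genes higher 0 to 5, lower 0 to 2, median 0.41 to 0.78; replacement genes lower 2 to 4, median -0.33 to -0.12; mRNA processing genes lower 0 to 3; replacement chaperones higher 0 to 3, lower 0 to 3; H1f0 -0.37 to 0.017; Hist1h4i -0.52 to 0.42. In EGFP over WT they were Hist genes higher 0 to 3, lower 0 to 3, median 0.27 to 0.89; H2afx -0.52 to 0.074; H3f3a -0.0045 to 0.18; Hist1h1c -0.054 to 1.09; Hist2h2aa2 -0.67 to 0.21. In EYFP over WT they were Hist genes higher 7 to 15, lower 0 to 1, median 0.85 to 1.45; replacement median -0.20 to 0.061; H1f0 -0.16 to 0.23. Leaving out a library of a compared group also lowered the number of all genes called, in either direction. The cause of these moves was not tested.

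Few reads limit most tested Hist genes, which had a median of 102 counts over the 6 libraries together.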
